A study of Homo sapiens with 8 samples.

Results

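The chemokine ligand genes CXCL1, CXCL2, CXCL3, CXCL5, CXCL6, CXCL8, CXCL16, CX3CL1, CCL2 and CCL20 were followed through 8 RNA-seq libraries of the human breast cancer line LM2. They were taken by gene symbol, and each of the 10 matched a single Ensembl identifier among the 58688 genes counted in every library. Chemokines are small secreted or membrane-bound proteins that draw leukocytes along a concentration gradient by binding receptors coupled to G proteins. CXCL1, CXCL2, CXCL3, CXCL5, CXCL6 and CXCL8 (interleukin-8) carry an ELR motif ahead of their first cysteines, bind CXCR2, and mainly recruit neutrophils. Their genes lie together on chromosome 4 and are classical targets of the transcription factors NF-kB and AP-1, while CXCL16 and CX3CL1 are made as membrane-anchored proteins that ADAM10 and ADAM17 can shed.

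LM2 is a lung-metastatic derivative of MDA-MB-231, a triple negative breast cancer line. In the compound experiment, LM2 cells received DMSO, the vehicle (2 libraries), or 1 μmol/L Ponatinib, an inhibitor of ABL and other tyrosine kinases, for 6 h (2 libraries). In the knockdown experiment, LM2 cells were incubated for 48 h with lentivirus carrying a scrambled shRNA (shCtrl), an shRNA against ABL1, one against ABL2, or both, with 1 library for each condition and therefore no replicates. Per the paper's methods, infected cells were selected with puromycin before harvest. The comparisons ask whether the drug, and loss of the 2 ABL kinases it inhibits, change chemokine mRNA. Nothing in the labels says whether the DMSO and Ponatinib pairs came from separate cultures, so p-values measure the spread between these libraries, which may be technical.

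The counts on genes summed to between 7568934 and 13010896 per library, and 3 counts corresponded to 0.231 to 0.396 CPM, the count of a gene scaled by its library's sum over all genes. In the files, the header cell of the shCtrl library names the ABL1 hairpin and that of the ABL1 shRNA library reads NC. Those of the Ponatinib libraries read N61 and N62 and do not name the drug, and the ABL2 and double knockdown libraries have none. The Ponatinib libraries were therefore assigned by the labels alone. In the knockdowns, the mRNA of the targeted genes goes with the labels. ABL1 stood at 186 CPM in shCtrl and at 72.5, 204.7 and 110.6 in the ABL1, ABL2 and double knockdown cells, and ABL2 stood at 231.3, 211.9, 94.5 and 149.4 CPM in the same order. With both hairpins each target was thus lowered less (1.74-fold for ABL1 and 1.61-fold for ABL2) than by its own hairpin alone (2.63-fold and 2.54-fold). The mRNA of the targets also moved with Ponatinib. ABL2 fell from 329.1 and 300.7 CPM in DMSO to 149.2 and 171.8 (log2 fold change -1.02, edgeR adjusted p = 8.6e-08). ABL1 rose from 162.6 and 160 to 184.6 and 196.6 CPM (0.19, edgeR adjusted p = 0.029). The breast basal and mesenchymal markers VIM, CD44, CAV1, SPARC and AXL were abundant in all 8 libraries, with a summed level of 3544 to 5617 CPM, and 68 genes with at least 100 counts in all DMSO and Ponatinib libraries had 0 in all shRNA libraries, so levels were compared by test only within each experiment.

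Among the 10 members, the most abundant transcripts were those of the neutrophil-attracting genes CXCL8, CXCL1 and CXCL2. To set genes against each other, CPM was divided by the length of each gene's merged exons in kilobases. Merged exons join all annotated transcripts of a gene, so this length can exceed that of the mRNA made, and the order of genes can depend on it. In DMSO, CXCL8 stood highest at 9.80 and 11.8 CPM per kilobase, followed by CXCL1 at 7.66 and 6.79, CXCL2 at 4.04 and 4.34, and CXCL3 at 0.744 and 0.717. The ranges of these 4 neighbours did not overlap. In shCtrl cells CXCL1 stood at 172.1 and CXCL8 at 146.4 CPM per kilobase, followed by CXCL2 at 28.5, CXCL3 at 6.83 and CCL20 at 3.78. Without division by length, CXCL8 led CXCL1 in shCtrl (378.8 against 234.4 CPM) as it did in DMSO. The order of this pair in shCtrl therefore rests on the exon length used. CX3CL1, the membrane-anchored ligand of CX3CR1, lay far lower, at 0.0729 and 0.0501 CPM per kilobase in DMSO and 0.347 in shCtrl.

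The remaining members were at the edge of detection. CXCL5 had 0 to 3 counts per library, CCL2, a monocyte attractant, had 0 to 2, and CXCL6 had 1 count in a single Ponatinib library and 0 elsewhere. CXCL16, the ligand of CXCR6, had 1 and 2 counts in DMSO, 3 and 6 in Ponatinib, 2 in shCtrl and 11, 4 and 7 in the ABL1, ABL2 and double knockdown cells. CCL20, which attracts CCR6-bearing dendritic and T cells, had 3 and 0 counts in DMSO and 0 and 1 in Ponatinib, against 70 in shCtrl. In bulk RNA, fewer expressing cells and less RNA per cell cannot be told apart for any of these genes.

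Summed over the 10 genes, the level was 44.05 and 48.3 CPM in DMSO and 23.0 and 23.1 in Ponatinib. It was 676.9 CPM in shCtrl and 300.8, 225.7 and 171.7 in the ABL1, ABL2 and double knockdown cells. CXCL8 supplied 57.6% and 63.1% of these counts in DMSO and 24.7% and 26.9% in Ponatinib, and 43.9% to 56.0% in the shRNA libraries. The level of the family therefore differed more between the DMSO and shCtrl controls than between either control and its treatments. What sets the 2 controls apart (virus, puromycin selection, handling, time or sequencing) cannot be told apart here.

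On GRCh38, CXCL8 (ENSG00000169429) lies at chr4:73740519-73743716 and CXCL1 (ENSG00000163739) at chr4:73869393-73871308, both on the plus strand, with CXCL6 between them at chr4:73836640-73849064. CXCL3 (chr4:74036589-74038807) and CXCL2 (chr4:74097040-74099196), together with CXCL5 (chr4:73995642-73998677), lie on the minus strand of the same cluster. CX3CL1 lies at chr16:57372477-57385044, CXCL16 at chr17:4733533-4739928, CCL2 at chr17:34255274-34257208 and CCL20 at chr2:227805739-227817564. CXCL1, CXCL2 and CXCL3 are close copies. Of the 50-base stretches in the annotated transcripts of CXCL2, 13.4% also occur in another chemokine gene, most of them in CXCL3. The share was 6.01% for CXCL3, 4.57% for CXCL1 and 0% for CXCL8, CX3CL1 and CCL20. Genes outside the chemokine families were not searched. Some reads of the 3 copies could thus have been split among them or dropped in counting.

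RefSeq promoter sequences (GRCh38.p14) were at hand for 7 of the 10 genes, namely CXCL1, CXCL2, CXCL3, CXCL5, CXCL6, CXCL8 and CCL20. The windows reach from 250 bases before to 50 bases after the start site, and 4 motifs were searched on both strands: the AP-1 site TGANTCA, a kappaB core GGAANTTCC, the wider kappaB consensus, which can overlap the core, and the TATA box TATAAA. The 150 bases before the start site follow for the 4 of them well counted in both experiments and for CCL20, 5′ to 3′ on the gene's own strand, because these 4 CXC genes share a cluster yet did not all move in the same direction with Ponatinib. Capitals mark the motif matches.
CXCL8, chr4:73740419-73740568, plus strand: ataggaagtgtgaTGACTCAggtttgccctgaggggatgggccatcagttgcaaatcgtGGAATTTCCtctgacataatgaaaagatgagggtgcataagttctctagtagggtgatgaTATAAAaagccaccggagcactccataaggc
CXCL1, chr4:73869243-73869392, plus strand: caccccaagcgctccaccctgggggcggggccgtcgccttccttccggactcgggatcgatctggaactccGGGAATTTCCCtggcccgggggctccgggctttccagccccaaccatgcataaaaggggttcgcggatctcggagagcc
CXCL2, chr4:74099196-74099345, minus strand: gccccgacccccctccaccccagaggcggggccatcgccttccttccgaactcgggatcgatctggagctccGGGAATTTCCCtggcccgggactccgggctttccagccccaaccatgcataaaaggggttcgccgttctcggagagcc
CXCL3, chr4:74038690-74038839, minus strand: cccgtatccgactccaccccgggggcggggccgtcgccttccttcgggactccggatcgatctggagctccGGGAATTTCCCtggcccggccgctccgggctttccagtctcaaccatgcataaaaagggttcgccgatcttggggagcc
CCL20, chr2:227813692-227813841, plus strand: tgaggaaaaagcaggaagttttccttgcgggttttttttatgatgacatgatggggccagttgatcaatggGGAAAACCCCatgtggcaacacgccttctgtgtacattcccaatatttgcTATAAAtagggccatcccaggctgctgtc

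The 150 bases of CXCL1 were identical to those of CXCL2 at 134 of 151 aligned positions (88.7%) and to those of CXCL3 at 133 of 151 (88.1%), against 74 of 164 (45.1%) for CXCL8. CXCL1, CXCL2 and CXCL3 carried the same kappaB run, its core starting 77 or 78 bases before the start site, whereas the core of CXCL8 started 91 bases before it. The kappaB core was present in 6 of the 7 promoters (CCL20 had none) and in 0.965% of the 35116 promoter windows of all genes, and the wider consensus in 6 of 7 (CXCL8 had none) and in 11.3% of all windows. An AP-1 match stood in CXCL8 alone among the 7, starting 137 bases before the start site, and in 7.71% of all windows. TATAAA was found in CXCL8 and CCL20 and in 11.5% of all windows. These are matches of letters, and binding was not measured.

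**Figure D1:**
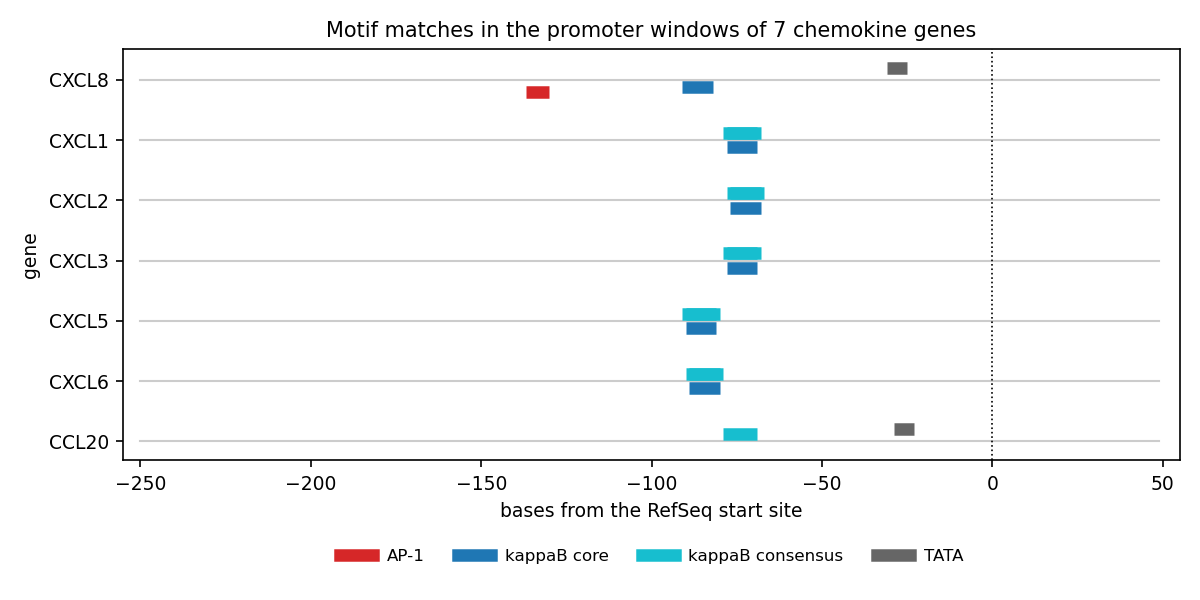
Positions of AP-1, kappaB and TATA motif matches in the promoter windows of 7 chemokine genes, in bases from the RefSeq start site (dotted line); grey lines are the windows searched. The kappaB core sits at similar distances in the 6 CXC genes, and CXCL8 alone has an AP-1 match.

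Ponatinib lowered CXCL8 and CXCL1, while CXCL2 and CX3CL1 were called as raised in the main fit, with calls that depended on the method. CXCL8, which encodes a neutrophil attractant, had 25.4 and 30.4 CPM in DMSO and 5.67 and 6.21 in Ponatinib (means 27.9 ± 3.6 and 5.94 ± 0.38, SD, n = 2 each). Both Ponatinib libraries lay well under both DMSO libraries, and the log2 fold change was -2.28 (SE 0.15, edgeR quasi-likelihood adjusted p = 3.2e-08), or 0.206 of the DMSO level. CXCL1 had 10.4 and 9.25 CPM in DMSO and 2.98 and 3.57 in Ponatinib (means 9.84 ± 0.83 and 3.27 ± 0.42, SD, n = 2 each). Again the groups did not overlap, and the log2 fold change was -1.65 (SE 0.20, edgeR adjusted p = 2.1e-05), or 0.319 of the DMSO level.

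The close copies of CXCL1 did not fall with it. CXCL2 had 5.65 and 6.07 CPM in DMSO and 9.51 and 7.79 in Ponatinib, 0.54 higher on the log2 scale (SE 0.18, edgeR adjusted p = 0.039). CXCL3 had 1.65 and 1.59 CPM in DMSO and 3.17 and 2.64 in Ponatinib, 0.81 higher on the log2 scale (SE 0.30), which missed the threshold (edgeR adjusted p = 0.052). For both genes the 2 Ponatinib libraries lay above the 2 DMSO libraries, on 59 to 99 counts for CXCL2 and 16 to 33 counts for CXCL3. The call for CXCL2 did not hold with DESeq2 (adjusted p = 0.34) or without DMSO 1, DMSO 2 or Ponatinib 1. CXCL3 passed among genes with at least 10 counts in every library (edgeR adjusted p = 0.033). With single libraries left out, the log2 fold change ran from 0.38 to 0.66 for CXCL2 and from 0.66 to 0.92 for CXCL3. With the 3 copies summed, the counts were 204 and 170 in DMSO and 163 and 106 in Ponatinib, and the sum's log2 fold change was -0.26 (edgeR adjusted p = 0.14), so opposite changes of single copies were not visible in their sum.

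CX3CL1 had 5 and 3 counts in DMSO and 11 and 13 in Ponatinib, or 0.434 and 0.299 against 1.06 and 1.72 CPM. Its log2 fold change was 1.77 (SE 0.52, edgeR adjusted p = 0.018), with both Ponatinib libraries above both DMSO libraries. The call was lost without DMSO 1, DMSO 2 or Ponatinib 2, with log2 fold changes of 2.08, 1.56 and 1.44. DESeq2 gave no adjusted p for this gene because of its low counts.

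Of the 10 members, 5 passed the filter on low counts (CXCL1, CXCL2, CXCL3, CXCL8 and CX3CL1). Among these, 4 had an adjusted p under 0.05, which 30.7% of the 16031 genes tested also had. CXCL8 and CXCL1 fell, as did 15.7% of all genes tested, and CXCL2 and CX3CL1 rose, as did 15.0%. CXCL8, CXCL1 and CX3CL1 changed by more than 2-fold with an unadjusted p under 0.05, a criterion met by 5.48% of all genes tested. The median log2 fold change of the 5 was 0.54, against -0.0047 over all genes tested. CXCL5, CXCL6, CXCL16, CCL2 and CCL20 were not tested, and at 0 to 6 counts per library a change in them was not detectable at this depth.

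**Figure D2:**
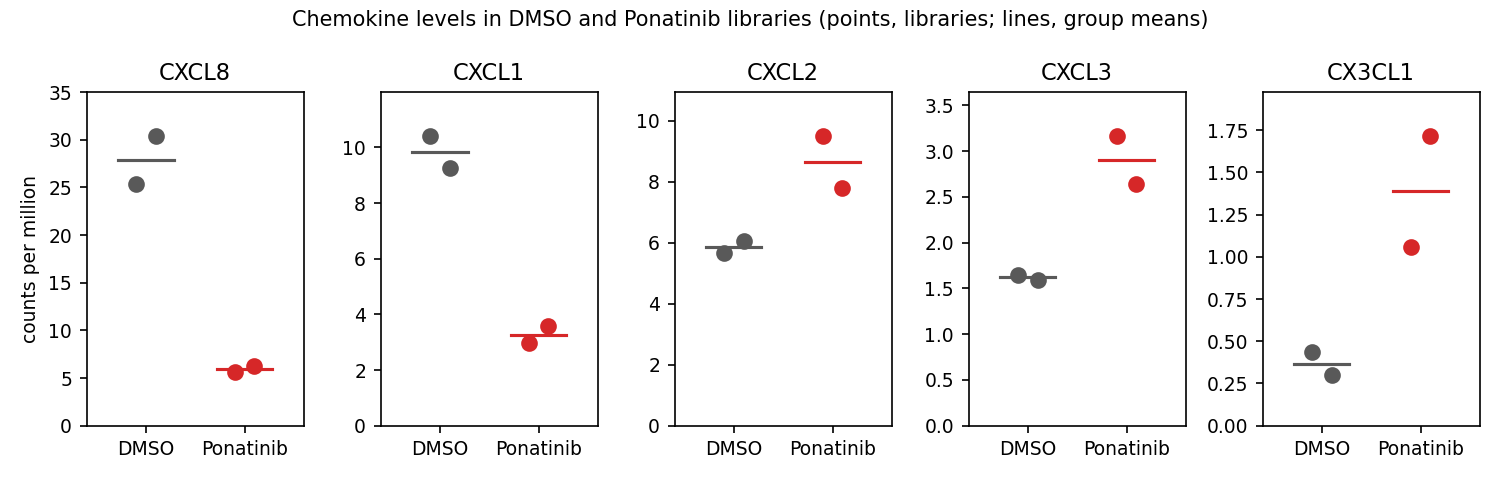
Level of the 5 tested chemokine genes in CPM in the 2 DMSO and 2 Ponatinib libraries (points), with group means as lines and an axis from 0 for each gene. CXCL8 and CXCL1 lie lower with Ponatinib, and CXCL2, CXCL3 and CX3CL1 lie higher, with no overlap between the groups.

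Within a library, the counts of 2 genes can be set against each other without any scaling. The ratio of CXCL8 to CXCL2 counts was 4.49 and 5.02 in DMSO and 0.596 and 0.797 in Ponatinib, and that of CXCL1 to CXCL2 was 1.85 and 1.52 in DMSO and 0.313 and 0.458 in Ponatinib. Both ratios were lower in each Ponatinib library than in either DMSO library. Per kilobase of exon, CXCL2, the lowest of these 3 transcripts in DMSO, led in Ponatinib at 6.80 and 5.58 CPM, ahead of CXCL1 (2.19 and 2.62) and CXCL8 (2.19 and 2.40), whose ranges overlapped, and of CXCL3 (1.43 and 1.19). In the shRNA libraries both ratios stayed above 4, at 9.50, 5.05, 6.58 and 4.74 for CXCL8 and 5.88, 4.76, 4.63 and 4.26 for CXCL1 in shCtrl, ABL1, ABL2 and double knockdown cells.

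**Figure D3:**
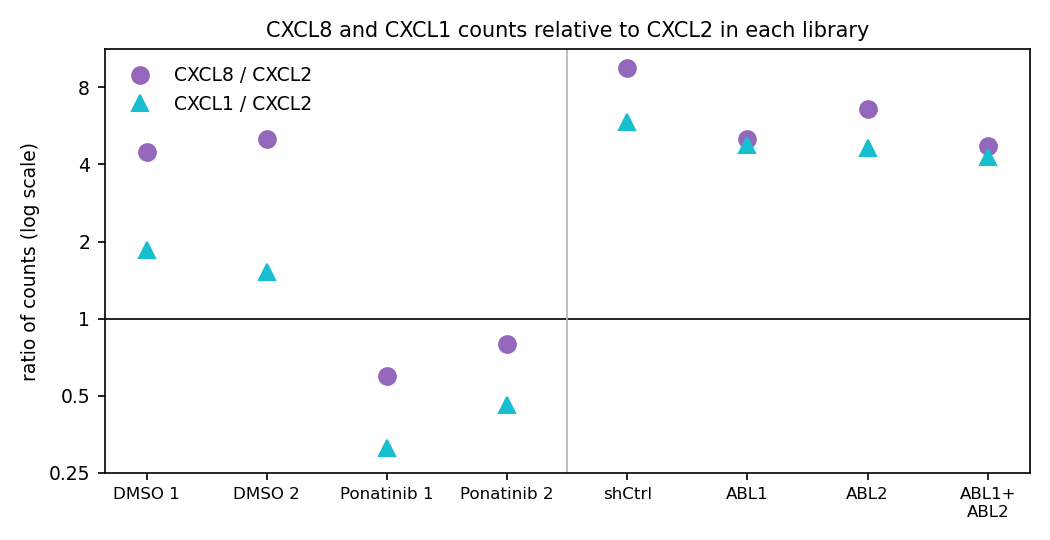
Ratio of CXCL8 counts (circles) and CXCL1 counts (triangles) to CXCL2 counts in each of the 8 libraries, on a log axis with a line at 1. The 2 Ponatinib libraries alone lie under 1, and the 4 shRNA libraries lie between 4.26 and 9.50.

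Each ABL knockdown had lower CXCL8, CXCL1, CXCL2, CXCL3 and CCL20 than shCtrl and higher CX3CL1. These differences compare single libraries, so no p-value is given, and the 95% intervals of ratios cover counting error only. Reads that come from PCR are not independent molecules, so the intervals may be too narrow even for counting error. CXCL8 had 4398 counts in shCtrl and 1728, 1428 and 906 in the ABL1, ABL2 and double knockdown cells, or 378.8, 132.8, 114.6 and 75.4 CPM. Scaled by TMM, CXCL8 was 2.92-fold lower in ABL1 knockdown cells (ratio 0.342, interval 0.324 to 0.362), 3.43-fold lower in ABL2 knockdown cells (0.291, 0.274 to 0.309) and 5.21-fold lower after double knockdown (0.192, 0.178 to 0.206). No other member's ratio fell so far in these libraries, but the counting interval of CCL20 held the CXCL8 ratio in each knockdown.

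CXCL1 had 2722, 1629, 1005 and 814 counts in the same order, or 234.4, 125.2, 80.7 and 67.8 CPM. It was 1.92-fold lower after ABL1 knockdown, short of 2-fold, 3.02-fold lower after ABL2 knockdown and 3.59-fold lower after double knockdown. CXCL2, which had risen with Ponatinib, had 463, 342, 217 and 191 counts and was 1.55-fold, 2.38-fold and 2.60-fold lower. CXCL3 had 176, 94, 84 and 53 counts and was 2.15-fold, 2.34-fold and 3.56-fold lower. Thus all 3 copies pointed down in the knockdowns, as did their sum (3361, 2065, 1306 and 1058 counts).

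CCL20, hardly detected in the compound experiment, had 70 counts in shCtrl and 31, 24 and 22 in the ABL1, ABL2 and double knockdown cells. It was 2.59-fold (ratio 0.386, interval 0.244 to 0.597), 3.25-fold (0.307, 0.185 to 0.495) and 3.41-fold lower (0.293, 0.173 to 0.479). CX3CL1 lay higher in each knockdown, with 24 counts in shCtrl and 78, 47 and 70 in the knockdowns. Its ratio to shCtrl was 2.83 after ABL1 knockdown (interval 1.77 to 4.68), 1.76 after ABL2 knockdown (1.05 to 3.004) and 2.72 after double knockdown (1.69 to 4.52). CXCL16 also lay higher in each, but on 11, 4 and 7 counts against 2, of which 4 and 7 were under the minimum (ratio with ABL1 shRNA 4.79, interval 1.04 to 44.5).

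**Figure D4:**
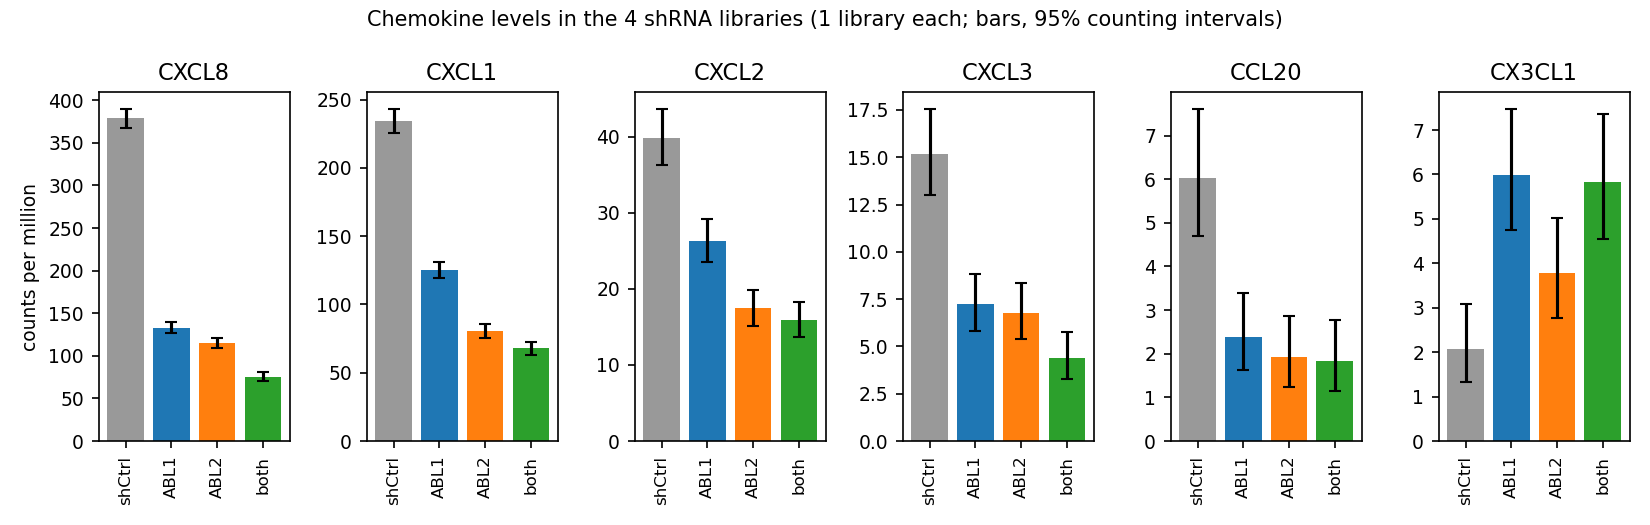
Level of 6 chemokine genes in CPM in the shCtrl, ABL1 shRNA, ABL2 shRNA and double knockdown (both) libraries, 1 library per bar, with 95% Poisson intervals that cover counting error only. The CXC genes and CCL20 are highest in shCtrl, and CX3CL1 is lowest there.

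With ABL1 shRNA, 7 members had at least 10 counts in either library, and 5 of them differed by more than 2-fold, against 8.87% of the 15832 genes over that minimum. Of these 5, CXCL3, CXCL8 and CCL20 lay lower, a direction taken by 4.13% of all genes, and CXCL16 and CX3CL1 higher, as did 4.74%. CXCL16 was over the minimum only through the ABL1 shRNA library, with 11 counts against 2 in shCtrl. Its inclusion and its direction are therefore not independent. With ABL2 shRNA, 5 of 6 members passed 2-fold (7.64% of 15769 genes), and all 5 (CXCL1, CXCL2, CXCL3, CXCL8 and CCL20) lay lower (3.11% of all genes), with no member more than 2-fold higher (4.52%). With both shRNAs, 6 of 6 passed 2-fold (7.67% of 15733 genes), with the same 5 members lower (3.31%) and CX3CL1 higher (4.36%). The median log2 ratio of the members over the minimum was -0.94, -1.42 and -1.80 in the 3 comparisons, against -0.0045, -0.016 and -0.0055 over all genes. If the spread between libraries is assumed to have a coefficient of variation of 0.4, edgeR's exact test leaves 0 members, and 0 of all genes, with an adjusted p under 0.05, and 0, 1 and 3 members with an unadjusted p under 0.05.

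The 5 members that lay lower followed the same order, with shCtrl above ABL1 shRNA, ABL1 shRNA above ABL2 shRNA and the double knockdown lowest. This order held for 5 of the 7 members with at least 10 counts in any shRNA library and for 3.64% of the 16329 such genes overall. Being highest in shCtrl, without the rest of the order, held for 5 of the 7 and for 30.5% of these genes. The order was not set before the members' values were seen, so these shares only describe it. For CXCL8 and CXCL1 each step was larger than these counting intervals allow, though the intervals may be too narrow. CXCL8 in the double knockdown stood at 0.659 of its level with ABL2 shRNA alone (interval 0.606 to 0.717), and CXCL1 stood at 0.842 (0.766 to 0.924). Other neighbours in the order were not separated by their counts, namely ABL2 shRNA and the double knockdown for CXCL2 (0.914, 0.749 to 1.12), ABL1 and ABL2 shRNA for CXCL3 (0.920, 0.677 to 1.25) and the 3 knockdowns for CCL20. CX3CL1 with both shRNAs did not differ from ABL1 shRNA alone beyond counting error (0.960, 0.685 to 1.34) and stood above ABL2 shRNA alone (1.55, 1.05 to 2.29).

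The 3 knockdown comparisons share the shCtrl library, which had the highest level of these 5 genes, so 1 library enters all of them. Because of the exchanged header cells described above, the members were also set against the ABL1 shRNA library. By its ABL1 mRNA (72.5 CPM, against 186 in shCtrl) that library is itself a knockdown. Ratios to it therefore leave out any change that the knockdowns share. On that basis 1 member passed 2-fold with ABL2 shRNA (CXCL16, on 4 against 11 counts) and 0 with both shRNAs, while the log2 ratios of CXCL8 were -0.23 and -0.83 and those of CXCL1 were -0.65 and -0.90. CX3CL1 then lay lower rather than higher, with log2 ratios of -0.69 and -0.059.

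**Figure D5:**
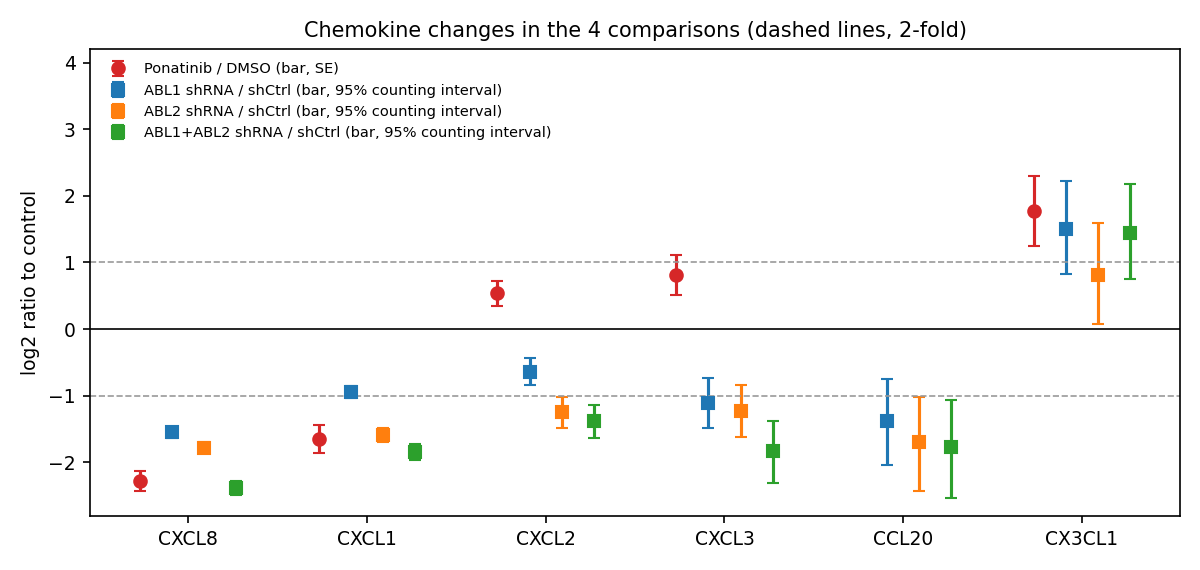
Log2 ratio to control of 6 chemokine genes with Ponatinib (circles, bars are standard errors) and in the 3 ABL knockdowns (squares, bars are 95% counting intervals); dashed lines mark 2-fold. CXCL8 and CXCL1 lie below 0 and CX3CL1 above 0 in all 4 comparisons, and CXCL2 and CXCL3 lie above 0 only with Ponatinib; CCL20 was not tested with Ponatinib.

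Side by side, CXCL8 had log2 values of -2.28 with Ponatinib and -1.55, -1.78 and -2.38 with ABL1 shRNA, ABL2 shRNA and both, and CXCL1 had -1.65, -0.94, -1.59 and -1.84. CX3CL1 was above its control in the same 4 comparisons, at 1.77, 1.501, 0.81 and 1.44. CXCL2 had 0.54, -0.64, -1.25 and -1.38, and CXCL3 had 0.81, -1.10, -1.22 and -1.83, the members whose sign differed between the compound and the hairpins. That difference in sign was not tested, since the hairpin libraries have no replicates.

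The receptors of these ligands had few or no counts. CXCR1, CXCR2, CX3CR1 and CCR6 had 0 counts in all 8 libraries, CCR2 had 0 to 6, and CXCR6, the receptor of CXCL16, had at most 14 (with ABL2 shRNA, against 6 in shCtrl). Of the 23 receptor genes listed, CCR1 and CCRL2 were tested with Ponatinib. CCRL2, an atypical receptor that presents chemerin, fell from 13.7 and 12.4 CPM in DMSO to 7.69 and 6.74 (log2 fold change -0.89, SE 0.16, edgeR adjusted p = 0.00057), and CCR1 did not pass (0.13, adjusted p = 0.87). With ABL2 shRNA, CCR1 had 317 counts against 97 in shCtrl (ratio 2.93, interval 2.33 to 3.72), against 152 in each of the other two knockdowns. CCR7 (25 to 31 counts) and CCR10 (8 to 13 counts) lay within 2-fold of shCtrl in all 3 knockdowns.

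Of 34 other chemokine ligand genes, most had fewer than 10 counts in every library. CCL28, a mucosal chemokine, rose with Ponatinib from 6.95 and 9.95 to 14.0 and 12.3 CPM (log2 fold change 0.62, SE 0.18, edgeR adjusted p = 0.016), and CCL26 did not pass (0.57, adjusted p = 0.33). CXCL10, a ligand of CXCR3 induced by interferon, had 19 counts in shCtrl and 6, 11 and 3 with ABL1 shRNA, ABL2 shRNA and both, and CXCL11 had 9, 5, 10 and 6. CCL28 and CCL26 lay within 2-fold of shCtrl in all 3 knockdowns.

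Of the cytokines and cytokine receptors listed as inducers of chemokines, 13 were tested with Ponatinib, and 7 fell and 0 rose (15.7% and 15.0% of all genes tested), with a median log2 fold change of -1.43 against -0.0047 over all genes tested. The interleukin gene IL1B (-3.79, edgeR adjusted p = 1.1e-10) and the colony stimulating factor genes CSF3 (-3.44, 9.6e-12) and CSF2 (-3.21, 5.1e-05) fell the most. In the knockdowns these 3 genes stayed within 2-fold of shCtrl, with IL1B at log2 ratios of 0.15, 0.48 and -0.095 and CSF3 at 0.86, 0.97 and 0.48. Of 14 such genes over the minimum in each knockdown, 3, 2 and 3 were more than 2-fold lower with ABL1 shRNA, ABL2 shRNA and both (4.13%, 3.11% and 3.31% of all genes), and 1, 0 and 1 were more than 2-fold higher (4.74%, 4.52% and 4.36%). The higher gene was IL11, named after its values were seen, with 288 counts in shCtrl and 2105, 312 and 1679 in the knockdowns, whereas it fell with Ponatinib (-2.44, edgeR adjusted p = 5.8e-11). IL6 and IL32, also named after their values were seen, were more than 2-fold lower in each, with 805 counts of IL6 in shCtrl and 459, 329 and 243 in the knockdowns.

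Among the AP-1, C/EBP and early-response factors, 5 rose and 5 fell of 11 tested with Ponatinib (15.0% and 15.7% of all genes tested; median log2 fold change -0.48), with the largest changes in FOS (log2 fold change -2.75, edgeR adjusted p = 4.8e-05), FOSL1 (-2.35, 1.4e-11) and EGR1 (-2.31, 3.4e-07). JUN, named because it is the factor the study centres on, fell as well (-2.18, 1.4e-11). With ABL1 shRNA, ABL2 shRNA and both, 2, 1 and 2 of the 11 were more than 2-fold lower (4.13%, 3.11% and 3.31% of all genes) and 0, 0 and 1 more than 2-fold higher (4.74%, 4.52% and 4.36%). The higher gene was FOS, with 49 counts in shCtrl and 96, 74 and 111 in the knockdowns, against its fall with Ponatinib. CEBPD, which encodes C/EBP delta and was named after its values were seen, was among these in each, with 942 counts in shCtrl and 392, 280 and 287 in the knockdowns, and it rose with Ponatinib (0.86, edgeR adjusted p = 0.0044).

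Of 17 genes of the NF-kB pathway, 2 rose and 8 fell with Ponatinib (15.0% and 15.7% of all genes tested; median log2 fold change -0.28). The largest changes were in BCL3, an atypical inhibitor protein that binds p50 and p52 (1.47, edgeR adjusted p = 4.1e-06), BIRC3 (-0.74, 2.2e-05) and NFKBIA, which encodes the inhibitor IkB alpha (0.68, 3.6e-06). With ABL1 shRNA, ABL2 shRNA and both, 0, 0 and 1 of the 17 passed 2-fold (8.87%, 7.64% and 7.67% of all genes), namely TNFAIP3, which was lower and was named after its values were seen. Of 11 genes for proteins that bind AU-rich elements or degrade chemokine mRNA, 1 rose and 5 fell with Ponatinib (15.0% and 15.7% of all genes tested; median log2 fold change -0.17), led by ZFP36L1 (-1.09, 1.2e-08), TIA1 (0.75, 3.7e-06) and HNRNPD (-0.34, 0.00061), and 0 passed 2-fold in any knockdown.

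Among 9 genes for sheddases and other proteases that cut chemokines, 8 were tested with Ponatinib, and 1 rose and 4 fell (15.0% and 15.7% of all genes tested; median log2 fold change -0.17). ADAM17, which sheds CX3CL1, rose from 33.5 and 31.4 to 49.7 and 52.6 CPM (log2 fold change 0.61, edgeR adjusted p = 8.1e-05). RHBDF2, which encodes the iRhom2 partner of ADAM17, fell (-1.12, 2.3e-05), as did MMP14, a membrane-bound metalloproteinase (-0.93, 2.3e-08). With ABL1 shRNA, ABL2 shRNA and both, 1 of 8 passed 2-fold in each (8.87%, 7.64% and 7.67% of all genes). That gene was MMP2, named after its values were seen, with 1103 counts in shCtrl and 286, 319 and 269 in the knockdowns.

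Genes with a pattern close to a member were sought over the 4 log2 values, by Euclidean distance, among 11842 genes with a mean of at least 50 counts. CXCL1 was closest to CCN1 (distance 0.62), ANKRD1 (0.69) and FST (0.77). CXCL8 was closest to EDN1 (1.01), which encodes endothelin-1, followed by CCN1 (1.24) and THBS1 (1.36). CX3CL1 was closest to AVPI1 (0.39), the adhesion molecule gene VCAM1 (0.63) and the sodium channel gene SCNN1A (0.70). CCN1 itself had log2 values of -1.59, -1.25, -1.88 and -1.39 with Ponatinib, ABL1 shRNA, ABL2 shRNA and both. The 3 knockdown values share shCtrl, and nearness here is a description over 4 values.

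Markers of other cell types that make chemokines were measured beside these genes. Of 7 leukocyte markers, 0 to 3 had at least 10 counts in a library, with a summed level of 1.79 to 2.64 CPM in the compound experiment, 6.46 in shCtrl and 9.76 to 12.2 in the knockdowns. PTPRC, CD3E and MS4A1, which define leukocytes, T cells and B cells, had at most 3, 1 and 0 counts. The myeloid marker CD14 had 32 counts in shCtrl and 86, 71 and 87 in the ABL1, ABL2 and double knockdown cells. LYZ had 2 against 16, 9 and 17. CSF1R, another myeloid marker, did not share this direction, with 38 counts in shCtrl and 18, 57 and 38 in the same order. The 4 endothelial markers summed to 11.1 and 11.3 CPM in DMSO, 7.88 and 8.06 in Ponatinib, 27.0 in shCtrl and 35.0 to 44.5 in the knockdowns. PECAM1 made most of the sum in the shRNA libraries, with 233 counts in shCtrl and 398, 499 and 393 in the knockdowns, while CDH5 had 0 to 3. KDR moved the other way there, with 66 counts in shCtrl and 40, 47 and 45 in the knockdowns. In DMSO, KDR made most of the sum, at 8.34 and 7.065 CPM. It fell with Ponatinib (log2 fold change -0.85, edgeR adjusted p = 0.0094), whereas PECAM1 did not pass (-0.016). The 4 fibroblast markers summed to 64.8 and 63.7 CPM in DMSO, 91.0 and 83.4 in Ponatinib, 407.7 in shCtrl and 106.4 to 238.8 in the knockdowns. Nearly all of it was the collagen gene COL1A1, which was highest in shCtrl, as were CXCL8 and CXCL1, with 4623 counts there and 1285, 2851 and 1683 in the knockdowns. PDGFRB rose with Ponatinib (log2 fold change 1.55, edgeR adjusted p = 0.00046), and DCN had 0 to 4 counts. The 6 luminal markers summed to 15.1 to 22.3 CPM over the 8 libraries. These marker genes were named after their values were seen, and the part of these sums in the chemokine differences was not tested.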

How the data were processed

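RNA from 8 LM2 libraries was sequenced. The authors mapped reads to hg38 with TopHat and counted reads per gene with HTSeq 0.6.0 (FastQC for quality), per the labels' processing notes and the paper's methods, and deposited raw counts, 1 file per library. The annotation release and the strand setting are not given in the sources used here, so reads of opposite-strand genes (17.3% of the exon bases of CXCL5 and 6.16% of those of CXCL16 overlap another gene) cannot be assigned. The summary rows of the counter, present in the shRNA files alone, were left out (reads on no gene, 9.48% to 9.90% of those files' totals). The members and gene lists were chosen with earlier results of these data known.

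Ponatinib was tested against DMSO by edgeR's quasi-likelihood method (version 4.0.16, R 4.3.3; TMM, filterByExpr, Benjamini-Hochberg over 16031 genes, prior count 0.125), in the 4 libraries of that experiment. A gene was called at an adjusted p under 0.05. Each knockdown was given as the ratio of TMM-scaled CPM to shCtrl with an exact conditional binomial 95% interval, without a test, for genes with at least 10 counts in either library. Named genes were the 10 members, ABL1, ABL2, the members' receptors, other chemokine genes with at least 10 counts, the 3 largest passing Ponatinib changes of each other list, and the 3 nearest genes by pattern to CXCL1, CXCL8 and CX3CL1. Genes named otherwise are said to be so. Symbols, positions and exon lengths came from GENCODE on GRCh38, and promoters from RefSeq GRCh38.p14, aligned with Biopython 1.88. Scripts were tested on simulated data. Alternatives were DESeq2 1.42.0 (size factors and Wald test), other count filters and fold thresholds, the replicate block, a fit of all 8 libraries, an assumed coefficient of variation, summing CXCL1, CXCL2 and CXCL3, and leaving out libraries. Setting members against the ABL1 shRNA library was added after seeing the data.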

Additional observations from a re-analysis of the deposited data

How the results depend on the processing

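The number of members called with Ponatinib was 4, and it was 2 with the DESeq2 Wald test (CXCL1 and CXCL8) and 2 with CXCL1, CXCL2 and CXCL3 summed into 1 feature, which by construction leaves fewer features. Leaving out each DMSO or Ponatinib library in turn assumes that the lone library left in a group varies like the other group. The pairs did not vary alike (chi-square per degree of freedom 1.441 for DMSO and 3.125 for Ponatinib), so calls in these fits are uncertain. There the log2 fold change ran from -2.41 to -2.14 for CXCL8 and from -1.77 to -1.50 for CXCL1. The number called was 4 with DESeq2's size factors, without a filter, among genes with at least 10 counts in every library and with all 8 libraries in the fit. The number past 2-fold was 3, with 2 to 3 under these alternatives.

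With ABL1 shRNA, ABL2 shRNA and both, 5, 5 and 6 members passed 2-fold, and 0, 0 and 0 passed with edgeR's exact test at an assumed coefficient of variation of 0.4, which also called 0 of all genes (members at an unadjusted p under 0.05: 0, 1 and 3). Without a TMM factor and with DESeq2's size factors the numbers past 2-fold stayed at 5, 5 and 6. With at least 50 counts in either library they were 4, 5 and 6, and at a threshold of 1.5-fold 7, 6 and 6. With the 3 copies summed, which by construction leaves fewer features, they were 4, 3 and 4. Against the ABL1 shRNA library, itself a knockdown by its ABL1 mRNA and added after seeing the data, ABL2 shRNA had 1 and both had 0. There CX3CL1 turned from above its control to below it, with log2 ratios of -0.69 and -0.059. CXCL1, CXCL2, CXCL3, CXCL8 and CCL20 stayed below it, and no member's direction turned under the other alternatives, which kept the members apart. CXCL1 and CXCL8 stayed called with Ponatinib in every fit that kept all DMSO and Ponatinib libraries and held them as single features.

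The replicate block left 4 members called and moved the genes called from 4917 to 4984. The deviations of same-numbered DMSO and Ponatinib libraries had a correlation of 0.016 over 10278 genes, which are not independent replicates. With 2 libraries per group, this value cannot show whether the repeat numbers pair the libraries. Depth limits CXCL5, CXCL6 and CCL2, with at most 3 counts in any library, CCL20 in the compound experiment, likewise at most 3, and CXCL16, with 1 to 11.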
